A study of Larimichthys crocea with 4 samples.

Results

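Differentially regulated trout protein 1 (drtp1) was represented in the liver transcriptome of large yellow croaker by 3 of 57216 unigenes, the assembled transcript sequences of a species read without a genome. They were every unigene whose best hit in the NCBI non-redundant protein database (Nr) named drtp1 or differentially regulated trout protein, together with the other contigs of the same assembly cluster. The unigene CL1777.Contig1_All was chosen by its own values, the fragment numbers in the fasting and control libraries, so its levels and ratios are a description without a test. CL1777.Contig2_All is the other contig of that cluster and also has drtp1 of large yellow croaker as its best hit. Unigene4348_All was found by the annotation alone, with differentially regulated trout protein of the mandarin fish Siniperca chuatsi as its best hit.

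Liver mRNA of farmed large yellow croakers (Larimichthys crocea) was sequenced as paired-end reads on an Illumina HiSeq instrument. The groups were fish fasted for 21 d, fish under cold stress for 12 h, fish under thermal stress for 12 h, and untreated, normally fed control fish, with 1 library each. The fasting and control libraries were made from the livers of several fish, and the number of fish behind the stress libraries and the sex of the fish are not given in the sources used here. Because no group had a second library, no value has an error between fish or libraries, and the intervals given here are 95% exact intervals that cover counting error only.

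drtp1 takes its name from rainbow trout, where the transcript was found among liver genes that change in the acute phase response. In that response the liver alters its output of secreted plasma proteins after injury or infection, with iron carriers, complement proteins and protease inhibitors among them. The molecular role of drtp1 is not settled, and the deposited annotation gave none of the 3 unigenes a KEGG orthology number or a Swiss-Prot hit.

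The depth was 19.5 M (units of 1000000) counted fragments in the fasting library, 17.0 M in the cold stress library, 17.9 M in the thermal stress library and 17.5 M in the control library. Of 10 liver markers, 9 were found by annotation in the libraries, with prothrombin not found under that name, and 7 reached 1000 fragments in a library. Pancreatic digestive enzymes made up 3.81% to 9.52% of fragments. Hemoglobin made up 0.00433% to 0.00739% of fragments, and skeletal muscle markers 0.00156% to 0.00556%, with parvalbumin and myosin heavy chain at 0 unigenes. The fasting library stood apart in its egg envelope and yolk proteins, which took 1.46% of its fragments, against 0.00183% under cold stress, 0.0248% under thermal stress and 0.00464% in the control library. The part of this difference in the results on drtp1 was not tested, and in bulk liver, fewer cells of a type and less RNA per cell cannot be told apart.

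The 2 abundant drtp1 unigenes were close in length and in the strength of their protein hit, and Unigene4348_All lay outside the CL1777 assembly cluster. CL1777.Contig1_All has 472 bp and 43.86% GC, with a bit score of 187.2 for its Nr hit. It was merged from 4 contigs, 1 from each library, and its best nucleotide hit, the drtp1 mRNA of large yellow croaker, had a bit score of 827. Unigene4348_All has 474 bp and 48.52% GC, with a bit score of 188.3 for its Nr hit. It was merged from 5 contigs, 2 from the cold stress library and 1 from each of the others, and its best nucleotide hit was the mandarin fish mRNA, with a bit score of 466. CL1777.Contig2_All is a shorter contig of 236 bp with 52.54% GC, merged from 3 contigs of which 0 came from the fasting library. Its Nr hit had a bit score of 111.3 and its nucleotide hit a bit score of 139. Whether the unigenes stand for separate genes, alleles or products of the assembly was not tested, and none of the 3 could be matched to the RefSeq gene table of the species by name or by protein accession.

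CL1777.Contig1_All had 702 fragments in the fasting library, 61610 under cold stress, 33353 under thermal stress and 88198 in the control library. Its level per length was 76.2 FPKM (fragments per kb of unigene and per 1000000 counted fragments; 70.6 to 82.0) after fasting, 7669 FPKM (7609 to 7730) under cold stress, 3944 FPKM (3901 to 3986) under thermal stress and 10681 FPKM (10611 to 10752) in the control library. The levels ran in the order control, cold stress, thermal stress and fasting, and the counting intervals of neighbours in that order did not overlap. It stood at rank 632 by FPKM in the fasting library, against rank 13 under cold stress, rank 28 under thermal stress and rank 8 in the control library. In the fasting library its neighbours by FPKM were the protein phosphatase 1 regulatory subunit 3C-B-like unigene at 76.3 FPKM, of a family that directs the phosphatase to glycogen, and delta-1-pyrroline-5-carboxylate dehydrogenase-like at 76.2 FPKM, an enzyme of proline breakdown. In the control library it stood between apolipoprotein A-I at 16350 FPKM and apolipoprotein E at 8673 FPKM, which carry lipids in plasma. Its neighbours under thermal stress were apolipoprotein C-II at 4048 FPKM and a hypothetical protein at 3896 FPKM. Under cold stress it stood directly below Unigene4348_All, the other abundant drtp1 unigene, and directly above a hypothetical protein at 7275 FPKM.

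Unigene4348_All had 185372 fragments in the fasting library, 64906 under cold stress, 56758 under thermal stress and 47582 in the control library. Its level was 20025 FPKM (19934 to 20116) after fasting, 8045 FPKM (7984 to 8107) under cold stress, 6683 FPKM (6628 to 6738) under thermal stress and 5738 FPKM (5687 to 5790) in the control library. The levels ran in the order fasting, cold stress, thermal stress and control, so that the fasting and control libraries had changed places relative to CL1777.Contig1_All, and the counting intervals did not overlap here either. It stood at rank 4, rank 12, rank 14 and rank 12 by FPKM in the fasting, cold stress, thermal stress and control libraries. After fasting it stood between 2 apolipoprotein A-I unigenes at 21769 and 18914 FPKM. Under cold stress the unigene directly above it was angiotensinogen at 9230 FPKM, the precursor of angiotensin, and in the control library it stood below apolipoprotein C-II at 7226 FPKM and above a hypothetical protein at 5544 FPKM. Under thermal stress it stood between a hypothetical protein at 7385 FPKM and metallothionein B at 6089 FPKM, a metal-binding protein.

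CL1777.Contig2_All was rare in all 4 libraries, with 14 fragments in the fasting library, 127 under cold stress, 37 under thermal stress and 104 in the control library. These are 3.04 FPKM (1.66 to 5.10) after fasting, 31.6 FPKM (26.4 to 37.6) under cold stress, 8.75 FPKM (6.16 to 12.1) under thermal stress and 25.2 FPKM (20.6 to 30.5) in the control library. The counting intervals of the cold stress and control libraries overlapped, so that an order between these levels was not detectable at this depth. Its fragments were 1.99%, 0.206%, 0.111% and 0.118% of those of CL1777.Contig1_All in the fasting, cold stress, thermal stress and control libraries.

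**Figure D1:**
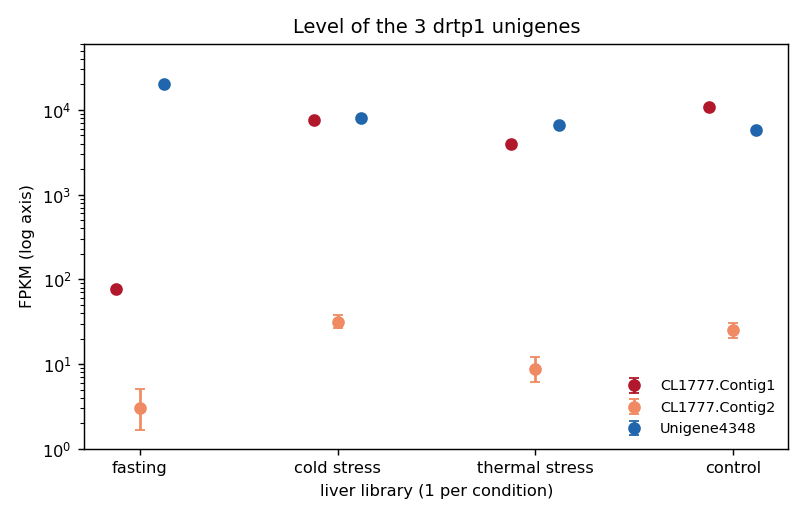
Level of the 3 drtp1 unigenes in the 4 liver libraries, in FPKM on a log axis, with 1 library per condition and 95% exact Poisson bars that cover counting error only. CL1777.Contig1_All lies at 76.2 FPKM after fasting and at 10681 FPKM in the control library, whereas Unigene4348_All lies at 20025 FPKM after fasting and at 5738 FPKM in the control library.

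All comparisons with the control library share its fragments and are therefore not independent of each other. In fasting over control, CL1777.Contig1_All had a log2 ratio of -7.13 (-7.24 to -7.02), a level 140.3-fold lower after fasting. CL1777.Contig2_All had a log2 ratio of -3.05 (-3.97 to -2.24), and Unigene4348_All one of 1.80 (1.79 to 1.82), a level 3.49-fold higher after fasting. Thus 2 of the 3 unigenes were at least 2-fold lower and 1 was at least 2-fold higher. Over all 52948 unigenes tested, those above 3 fragments in either library, 23.1% were at least 2-fold lower and 18.5% at least 2-fold higher. CL1777.Contig1_All was chosen on this comparison, so its place is given as a description: 9 unigenes, itself included, had a ratio as low or lower. Counts under 3 fragments were set to 3, so a unigene with few control fragments could not reach so low a ratio. Among the 338 unigenes with at least 10000 fragments in the fasting or the control library its ratio was the lowest. An apolipoprotein A-IV unigene just under this minimum, with 9204 control fragments, had a lower log2 ratio of -7.52. CL1777.Contig1_All is one of these 338 through the control library alone, with 88198 fragments there and 702 after fasting, so the filter and the choice both favour a low place. Unigene4348_All was at place 38 from the top among those 338, of which 130 were at least 2-fold higher and 74 at least 2-fold lower.

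**Figure D2:**
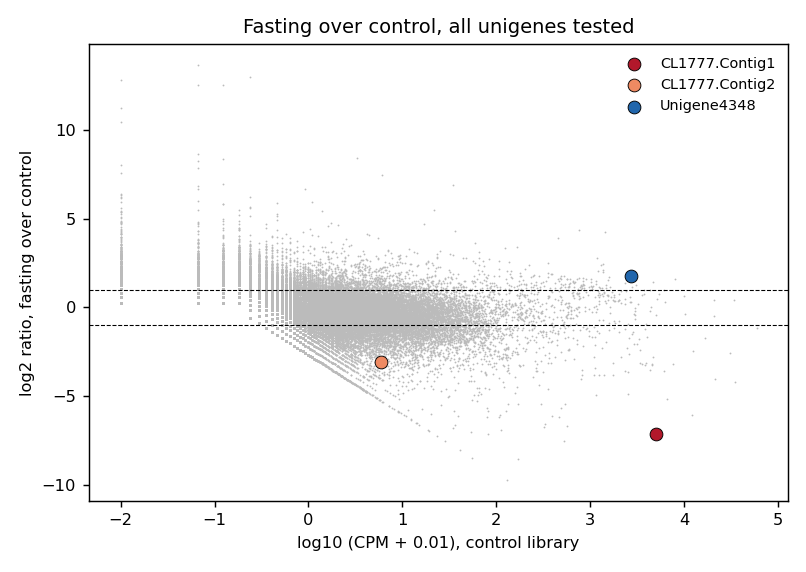
Log2 ratio of fasting over control against the level in the control library (log10 of CPM + 0.01, with CPM as fragments per 1000000) for all 52948 unigenes tested, with the 3 drtp1 unigenes coloured and dashed lines at 2-fold. CL1777.Contig1_All, at a log2 ratio of -7.13, is the lowest of the 338 unigenes with at least 10000 fragments in the fasting or the control library. It was chosen on this comparison and is one of these 338 through the control library alone. An apolipoprotein A-IV unigene with 9204 control fragments, just under the minimum, has a lower log2 ratio of -7.52. Unigene4348_All, at 1.80, lies above the upper dashed line.

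In cold stress over control, CL1777.Contig1_All had a log2 ratio of -0.48 (-0.49 to -0.46) and Unigene4348_All one of 0.49 (0.47 to 0.50). CL1777.Contig2_All had a log2 ratio of 0.33 with an interval from -0.06 to 0.72, so that a difference was not detectable at its depth. None of the 3 unigenes differed 2-fold, where 26.2% of 52056 unigenes were at least 2-fold higher and 18.3% at least 2-fold lower. The abundant unigenes again stood on opposite sides of the control library, at 1.39-fold lower for CL1777.Contig1_All and 1.40-fold higher for Unigene4348_All.

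In thermal stress over control, CL1777.Contig1_All had a log2 ratio of -1.44 (-1.46 to -1.42) and CL1777.Contig2_All one of -1.53 (-2.11 to -0.97). Both ratios were past 2-fold lower, but the interval of CL1777.Contig2_All also held differences under 2-fold. Unigene4348_All had a log2 ratio of 0.22 (0.20 to 0.24). Counted as reads placed at 1 position, this ratio was 0.03. Of 50845 unigenes, 22.7% were at least 2-fold lower and 13.7% at least 2-fold higher. Among the 298 unigenes with at least 10000 fragments in the thermal stress or the control library, the ratio of CL1777.Contig1_All was at place 10 from the bottom. That of Unigene4348_All was at place 150 from the top, the middle of these unigenes. CL1777.Contig1_All was chosen partly by its control value, which favours a low place here too, so its place is a description.

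In cold stress over thermal stress, the log2 ratio was 0.96 (0.94 to 0.98) for CL1777.Contig1_All, 1.85 (1.32 to 2.42) for CL1777.Contig2_All and 0.27 (0.25 to 0.28) for Unigene4348_All. Only CL1777.Contig2_All passed 2-fold among the 3, where 31.1% of 50741 unigenes were at least 2-fold higher and 16.2% at least 2-fold lower. The direction for Unigene4348_All depended on the scaling of the libraries, with a log2 ratio of -0.08 with TMM library sizes and -0.07 with median-of-ratios size factors.

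The balance between the abundant drtp1 unigenes can be read within a library, where no scaling between libraries enters. CL1777.Contig1_All made up 0.377% (0.350% to 0.406%) of the fragments of this pair in the fasting library, 48.7% (48.4% to 49.0%) under cold stress, 37.0% (36.7% to 37.3%) under thermal stress and 65.0% (64.7% to 65.2%) in the control library. Per length, Unigene4348_All was 263-fold above CL1777.Contig1_All after fasting, 1.05-fold above it under cold stress and 1.69-fold above it under thermal stress. In the control library CL1777.Contig1_All was the higher of the pair, by 1.86-fold. The order within the pair depended on the measure under cold stress. Counted as reads placed at 1 position, per length, Unigene4348_All was 180.5-fold above CL1777.Contig1_All after fasting and 1.11-fold above it under thermal stress, while CL1777.Contig1_All was the higher of the pair by 1.41-fold under cold stress and by 2.46-fold in the control library. By either measure Unigene4348_All was thus the higher after fasting and under thermal stress and CL1777.Contig1_All in the control library.

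Summed over the 3 unigenes, drtp1 fragments hid the opposite ratios of the abundant unigenes. The sum was 186088 fragments after fasting, 126643 under cold stress, 90148 under thermal stress and 135884 in the control library, which are 0.953%, 0.744%, 0.503% and 0.777% of all fragments in these libraries. The log2 ratio of the sum over control was 0.29 (0.28 to 0.30) after fasting, -0.06 (-0.07 to -0.05) in the cold stress library and -0.63 (-0.64 to -0.61) in the thermal stress library. In cold stress over thermal stress it was 0.56 (0.55 to 0.58). The sum therefore had the opposite sign to CL1777.Contig1_All after fasting, and the opposite sign to Unigene4348_All in both stress libraries. Opposite ratios under a shared annotation were found elsewhere in the table. Of 152 KEGG orthology numbers with at least 2 unigenes of at least 1000 fragments, 15 (9.87%) held a unigene at least 2-fold higher and another at least 2-fold lower in fasting over control.

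Reads that could be placed on several unigenes could blur a difference between similar transcripts. Summed over unigenes, reads with several places made up 51.0% to 60.0% of all read placements in the 4 libraries. Such a read can be counted at each of its places, so the share of reads with several places is lower. Each of the 3 drtp1 unigenes had 0 such reads in every library. Of its length, CL1777.Contig1_All was covered to 86.44% after fasting, 97.46% under cold stress, 94.92% under thermal stress and 99.79% in the control library. Unigene4348_All was covered to 98.31%, 99.79%, 99.37% and 99.79% in the fasting, cold stress, thermal stress and control libraries. The coverage tables placed 1.97 to 1.98 reads per counted fragment on CL1777.Contig1_All, near the pair of reads that a fragment has, and 1.30 to 1.50 on Unigene4348_All. With reads placed at 1 position in place of fragments, the log2 ratio of fasting over control was -7.18 for CL1777.Contig1_All and 1.62 for Unigene4348_All. As both had 0 reads with several places, this count left out no reads of theirs. It differs through the reads placed per fragment and through the use of single-place reads for the library totals.

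The unigenes most like each drtp1 unigene were found by the pattern over the 4 libraries, as log2 levels minus their mean, in a search of 8825 unigenes with an annotation that reached 100 fragments in a library. The centred log2 level of CL1777.Contig1_All was -4.87 after fasting, 1.78 under cold stress, 0.82 under thermal stress and 2.26 in the control library. That of Unigene4348_All was 1.18, -0.14, -0.41 and -0.63 in the fasting, cold stress, thermal stress and control libraries. The root mean square difference between these patterns was 3.54 on the log2 scale. With 4 libraries such likeness is a description and no evidence of common regulation.

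Few unigenes came close to CL1777.Contig1_All, and the root mean square differences of the nearest 10 lay between 0.40 and 0.93. That unigene was chosen by its fasting and control values, which favours a rare pattern, so the distance is a description of the choice. All 10 were far lower after fasting than in the control library, which a search for this pattern favours. The nearest was an endothelial lipase-like unigene, of an enzyme that cleaves phospholipids of lipoproteins, with 21 fragments after fasting, 964 under cold stress, 704 under thermal stress and 1386 in the control library. An argininosuccinate synthase-like unigene, for an enzyme that makes the precursor of arginine, had 32, 1450, 1129 and 1898 fragments in the fasting, cold stress, thermal stress and control libraries. Biotinidase, which frees biotin for reuse, was the most abundant of the 10, with 3459, 173203, 253258 and 208860 fragments in the same order of libraries. An apolipoprotein A-IV unigene, for a lipid carrier of plasma, stood higher under cold stress than under thermal stress, as drtp1 did but by a wider gap, with 56 fragments after fasting, 14831 under cold stress, 1566 under thermal stress and 9204 in the control library. The fold by which the fasting library was lower was 73.7 for the endothelial lipase-like unigene, 66.2 for argininosuccinate synthase-like, 67.4 for biotinidase and 183 for apolipoprotein A-IV. These are folds of single unigenes. Over all 5 unigenes with the KEGG number of the apolipoprotein A-IV unigene, the log2 ratio of fasting over control was -1.21.

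The other 6 included cytochrome c-b, an electron carrier of the respiratory chain, DEPTOR-like, an mTOR inhibitor, and cytochrome b5 type B-like. They also included eukaryotic translation initiation factor 4E-like, which binds the mRNA cap, microfibril-associated glycoprotein 4-like and intestinal fatty acid-binding protein-like. Their fasting levels were 57.4-fold, at least 20.8-fold, 29.4-fold, 26.7-fold, 35.8-fold and at least 79.6-fold lower than the control, in the order named, where both lower bounds stand against 3 fragments because the fasting library had 0. Reads with several places made up as much as 100% of the placed reads of the DEPTOR-like unigene and 76.7% of those of the initiation factor in a library, so that their folds are uncertain, while for the other 8 of the 10 the highest share was 15.7%. A unigene is not always the whole gene, and a KEGG number can hold unigenes of other genes. Each of the 10 shared its KEGG number with other unigenes. Over all unigenes of the number, the log2 ratio of fasting over control was -0.20 for that of the endothelial lipase-like unigene. It was 0.65 for that of the DEPTOR-like unigene and -0.29 for that of the intestinal fatty acid-binding protein-like unigene. For the numbers of the argininosuccinate synthase-like and biotinidase unigenes it was -6.05 and -6.05. In both libraries the sum for argininosuccinate synthase held no fragments beyond those of the named unigene. That of the microfibril-associated glycoprotein 4-like unigene was at -4.77. For the numbers of cytochrome c-b, cytochrome b5 type B-like, the initiation factor and apolipoprotein A-IV it was -3.31, -2.11, -1.33 and -1.21. For 7 of the 10 the sum over the number was at least 2-fold lower after fasting, and for 3 it was not. Each sum holds a unigene picked for a pattern that is low after fasting, which favours low sums. The share over all KEGG numbers was not taken, so this count gives no result on these genes. Whether the whole gene was lower was not tested.

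Unigene4348_All had closer neighbours, with root mean square differences of 0.07 to 0.12 for the nearest 10. The wider differences around CL1777.Contig1_All give no scale for these, because that unigene was chosen by its values. The rule for named genes covered drtp1 as 1 unigene, and the neighbours of Unigene4348_All were added after values had been seen. The nearest was mitochondrial ATP synthase subunit c, part of the rotor of that enzyme, with 9064 fragments after fasting, 3170 under cold stress, 2913 under thermal stress and 2596 in the control library. Guanidinoacetate N-methyltransferase, which makes creatine, had 7099, 2814, 2079 and 1876 fragments in the fasting, cold stress, thermal stress and control libraries. Trypsinogen 1a, a precursor of a digestive protease of the exocrine pancreas, had 471058, 204690, 160005 and 138655 fragments in the same order of libraries. The log2 ratio of fasting over control was 1.65 for ATP synthase subunit c, 1.76 for guanidinoacetate N-methyltransferase and 1.61 for trypsinogen 1a. The others were phospholipase C-beta 1, butyrophilin-like 2, a zinc finger protein, complement C1q-like 4, hydroxypyruvate isomerase-like, an astacin-like metalloprotease and trypsinogen H1_3a2, with log2 ratios between 1.59 and 2.04. In a library, reads with several places were as much as 53.8% of those of the complement C1q-like unigene.

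**Figure D3:**
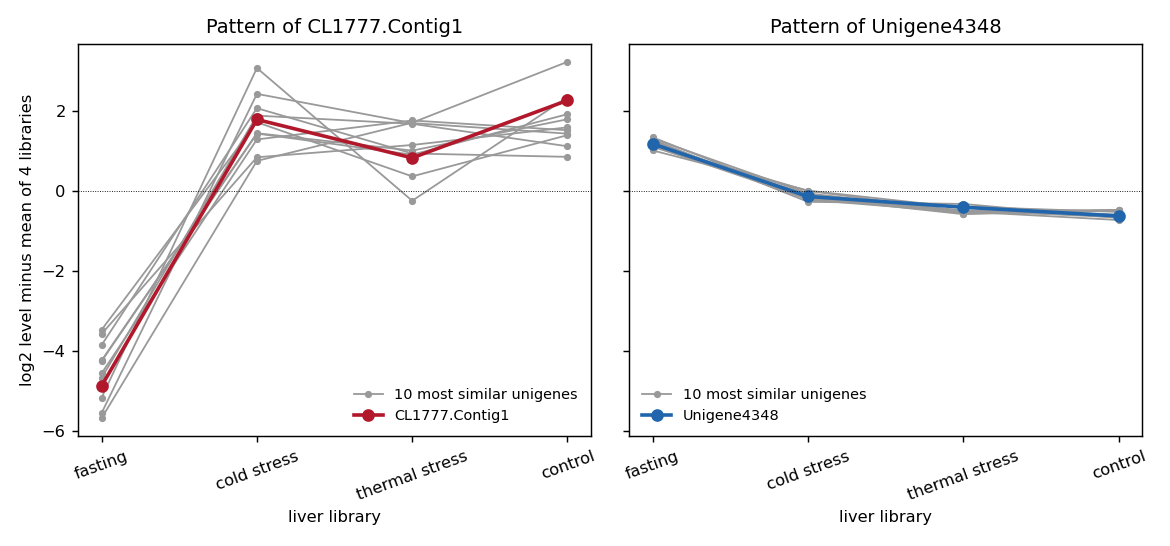
Log2 level minus the mean of the 4 libraries for CL1777.Contig1_All (left) and Unigene4348_All (right), each with its 10 most similar unigenes in grey. CL1777.Contig1_All lies at -4.87 after fasting and at 2.26 in the control library, and Unigene4348_All at 1.18 after fasting and at -0.63 in the control library.

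The summed pancreatic enzyme transcripts and Unigene4348_All were both above the control library in each comparison with it, by little under thermal stress, though not every enzyme was. These comparisons share the control library, and a link was not tested. In many bony fishes exocrine pancreas tissue lies within or along the liver, so that its transcripts can be present in a liver sample. The 43 unigenes of 7 pancreatic enzymes took 9.52% of fragments in the fasting library, 5.34% under cold stress, 3.99% under thermal stress and 3.81% in the control library. Over control, the log2 ratio of their sum was 1.32 after fasting, 0.49 in the cold stress library and 0.07 in the thermal stress library, beside 1.80, 0.49 and 0.22 for Unigene4348_All. The single unigenes spread widely. After fasting 22 of 42 were at least 2-fold higher and 3 at least 2-fold lower, with log2 ratios from -2.38 to 4.29. Over all unigenes tested, 18.5% were higher and 23.1% lower after fasting. Under thermal stress 1 of 42 was higher and 6 were lower, with a median of -0.14, where 13.7% of all unigenes were higher and 22.7% lower. Under cold stress 4 of 43 were higher and 1 was lower, with a median of 0.39, where 26.2% of all unigenes were higher and 18.3% lower. Alpha-amylase, which digests starch, had log2 ratios of -0.47 under cold stress and -0.89 under thermal stress, and pancreatic lipase one of -0.39 under thermal stress, on the other side of the control library from Unigene4348_All. For each 100 pancreatic enzyme fragments there were 9.97 fragments of Unigene4348_All after fasting, 7.14 under cold stress, 7.95 under thermal stress and 7.14 in the control library. For CL1777.Contig1_All there were 0.0378, 6.78, 4.67 and 13.2 in the fasting, cold stress, thermal stress and control libraries. Taken per pancreatic enzyme fragment, Unigene4348_All had a log2 ratio over control of 0.48 in the fasting library. It was thus further above the control library there than the summed enzymes were. The same ratio was 0.15 for thermal stress and -0.00015 for cold stress. CL1777.Contig1_All, at -8.45 for fasting, gives no scale for these ratios, because it was chosen by its fasting and control values. Of the 8825 unigenes searched for like patterns, 39 were pancreatic. Of these 39, 2 were among the 10 unigenes nearest to Unigene4348_All and 8 among the nearest 50. The tissue that expressed Unigene4348_All was not tested.

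The acute phase genes of the liver were read as a list of 18, because the trout transcript is known from that response. The list was not split by the direction in which its genes change in that response. Its medians and counts therefore give no direction of the response itself. Of these, 16 were found, while serum amyloid A and orosomucoid were not found by name, and 15 had at least 1000 fragments in a library when summed over their unigenes. In fasting over control, 6 of the 15 were at least 2-fold lower and 3 at least 2-fold higher, where 23.1% of all unigenes were lower and 18.5% higher. The median log2 ratio of the list was -0.61, beside -0.10 over all unigenes and 0.65 over the 338 with at least 10000 fragments in either library. Of the 7 general liver markers that reached 1000 fragments, 4 were at least 2-fold lower, with a median of -1.14. Apolipoprotein A-I, at 1.31, was the 1 marker at least 2-fold higher. Summed, the liver list took 9.54% of fragments after fasting and 11.1% in the control library, a log2 ratio of -0.21. Of these 7 markers, 5 (transferrin, complement C3, alpha-2-macroglobulin and the beta and gamma chains of fibrinogen) are also on the acute phase list. The part of the liver markers in the lower ratios of CL1777.Contig1_All and of the acute phase genes was not tested. The lowest was haptoglobin, which binds free hemoglobin, with 4167 fragments after fasting, 21904 under cold stress, 52850 under thermal stress and 46147 in the control library, a log2 ratio of -3.63 for fasting. LECT2, a secreted chemotactic protein and the most abundant unigene of the control library by FPKM, had 100276, 404624, 479887 and 532827 fragments in the fasting, cold stress, thermal stress and control libraries, with a log2 ratio of -2.57 for fasting. Ceruloplasmin, a copper-carrying ferroxidase, had a ratio of -2.46 and hepcidin, the peptide hormone of iron balance, one of -1.91. Transferrin, the iron carrier of plasma, and complement C3 had log2 ratios of -1.17 and -1.14. None of the 15 had a ratio as low as that of CL1777.Contig1_All, but that unigene was chosen on this comparison. The list genes are also sums over all their unigenes, and the sum over the 3 drtp1 unigenes had a log2 ratio of 0.29. The 3 genes at least 2-fold higher were fetuin at 1.42, pentraxin at 1.07 and transthyretin at 1.02. By any amount, 6 of the 15 were above the control library and 9 below it. Those above included alpha-1-antitrypsin at 0.62, ferritin at 0.28 and the heme-binding protein WAP65 at 0.22.

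The stress libraries gave another picture of the list. Under cold stress, haptoglobin and the heme-binding protein WAP65 were at least 2-fold lower than in the control library, each with a log2 ratio of -1.04, and 0 genes were 2-fold higher, where 18.3% of all unigenes were lower and 26.2% higher. The list median was -0.42, beside 0.18 over all unigenes and -0.06 over the 282 with at least 10000 fragments in either library. Under thermal stress, hepcidin was the only gene past 2-fold, with 83616 fragments against 22639 in the control library, a log2 ratio of 1.85, so that 1 of 15 genes was higher and 0 lower, where 13.7% of all unigenes were higher and 22.7% lower. The list median was -0.12, beside -0.19 over all unigenes and 0.22 over the 298 with at least 10000 fragments in either library. CL1777.Contig1_All, at -1.44 under thermal stress, lay below all 15 genes of the list in that library, of which the lowest was alpha-2-macroglobulin at -0.97. This sets a single unigene, chosen partly by its control value, beside sums over unigenes. The sum over the 3 drtp1 unigenes was at -0.63, above alpha-2-macroglobulin.

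**Figure D4:**
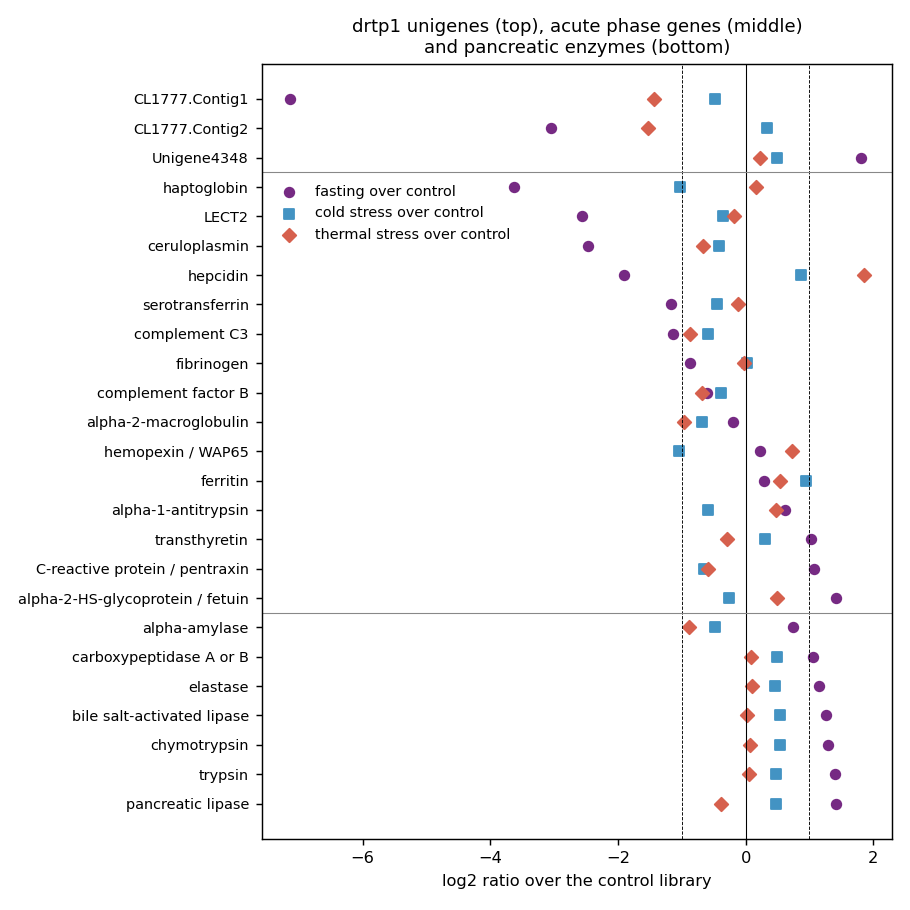
Log2 ratio over the control library of the fasting, cold stress and thermal stress libraries for the 3 drtp1 unigenes, the 15 acute phase genes with at least 1000 fragments in a library and the 7 pancreatic enzymes, with dashed lines at 2-fold. CL1777.Contig1_All at -7.13 lies left of haptoglobin at -3.63 after fasting, and Unigene4348_All at 1.80 lies right of trypsin at 1.41. CL1777.Contig1_All was chosen by its fasting and control values, and the acute phase genes and enzymes are sums over all their unigenes.

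Library scaling moved all ratios of a comparison together. Relative to library totals, the log2 ratios shifted by 0.12 with TMM and 0.18 with median-of-ratios factors in fasting over control, by -0.21 and -0.18 in cold stress over control, by 0.15 and 0.15 in thermal stress over control, and by -0.35 and -0.34 in cold stress over thermal stress. With the shift of 0.18, transferrin and complement C3 were less than 2-fold lower after fasting. For CL1777.Contig1_All in fasting over control, the log2 ratio was -7.01 with TMM and -6.95 with median-of-ratios factors. Totals without the 10 most abundant unigenes moved fasting ratios the other way, to -7.29 for CL1777.Contig1_All. With that shift pentraxin, at 1.07, and transthyretin, at 1.02, were less than 2-fold higher after fasting.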

How the data were processed

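The authors filtered the reads, assembled each library without a genome (their paper names SOAPdenovo in one place and Trinity in another) and merged the contigs into unigenes; the aligner and counter are not given in the sources used here. The counts are raw fragments per unigene, deposited by the authors without normalization. The deposited FPKM values are these counts per kb and 1000000 fragments. The authors' deposited coverage tables give reads with 1 or several places, the mean depth as a coverage signal, and 2 percent columns, the GC content and the part of each unigene that reads cover. The Nr score is the BLAST bit score deposited by the authors. The authors' fold changes and p-values were not used, and 0 columns of further samples were present.

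Log2 ratios were taken on counts over library totals with exact conditional binomial intervals, levels with exact Poisson intervals, and calls at 2-fold among unigenes above 3 fragments in a library, with smaller values set to 3 fragments. With 1 library per group no test was made. PCR reads are not independent molecules. The calculation was tested on simulated data. Named genes were the drtp1 unigenes, the 10 annotated unigenes of nearest centred log2 pattern (at least 100 fragments in a library, 0.5 added), the neighbours by FPKM in each library and acute phase genes with at least 1000 fragments. Members and lists were chosen with earlier results of these data known, and annotation patterns for transferrin, apolipoprotein A-I, amylase, pentraxin, myosin and LECT2 were corrected, and the egg protein list added, after matches were seen. Sequences of the unigenes were not analysed here. Alternatives were edgeR 4.0.16 TMM sizes, DESeq2 1.42.0 size factors, totals without pancreatic enzymes or without the 10 most abundant unigenes, sums over unigenes, single-place reads, added fragments and other minimums. Python 3.11.15, numpy 2.4.6, pandas 2.3.3, scipy 1.17.1, matplotlib 3.10.9 and R 4.3.3 were used.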

Additional observations from a re-analysis of the deposited data

How the results depend on the processing

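With 1 library per group, no spread between fish was measured, the number of fish behind the stress libraries is not given, and no ratio has a test. No paired analysis was possible because each group has 1 library. Depth did not limit the abundant drtp1 unigenes, but CL1777.Contig2_All had 14 to 127 fragments per library. What sets the fasting library apart (pancreatic, egg envelope and yolk transcripts) cannot be told apart from fasting.

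For CL1777.Contig1_All the direction over control was kept under every alternative but the sum over the 3 unigenes in fasting, and the cause of each shift is the scaling or the feature itself. With TMM sizes the log2 ratio was -7.01 in fasting, -0.68 in cold stress, -1.29 in thermal stress and 0.61 in cold stress over thermal stress, and with median-of-ratios factors -6.95, -0.66, -1.29 and 0.62 in the same order. With totals without the 10 most abundant unigenes it was -7.29 in fasting, -0.57 in cold stress and -1.52 in thermal stress. Without pancreatic enzymes it was -0.45 in cold stress and 0.98 in cold stress over thermal stress. The sum over the 3 unigenes gave 0.29, -0.062, -0.63 and 0.56. Single-place reads, 0.5 added fragments and the sum over the CL1777 cluster (added after seeing the data) moved no ratio of this unigene beyond its interval.

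For Unigene4348_All the fasting ratio was 1.92 with TMM, 1.98 with median-of-ratios factors, 1.89 without pancreatic enzymes, 1.64 without the 10 most abundant unigenes, 0.29 as the sum and 1.62 with single-place reads. In cold stress over thermal stress it turned to -0.085 with TMM and -0.068 with median-of-ratios factors, and the sum turned it to -0.062 in cold stress and -0.63 in thermal stress over control. With single-place reads its thermal stress ratio was 0.03. Its log2 level over that of CL1777.Contig1_All within the cold stress library was 0.069 by fragments and turned to -0.50 by single-place reads, an alternative added after seeing the data.

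The level of CL1777.Contig1_All in CPM was 38.9, 3055, 1982 and 4830 with median-of-ratios factors in the fasting, cold stress, thermal stress and control libraries. Without pancreatic enzymes it was 39.7, 3824, 1939 and 5241, without the 10 most abundant unigenes 43.1, 4573, 2356 and 6767, and as the sum 9528, 7441, 5031 and 7767. With TMM it was 3105, 2039 and 4987, and with single-place reads 3926, 2035 and 5448, in the cold stress, thermal stress and control libraries.

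With at least 10 fragments in both libraries, unigenes at least 2-fold higher and lower numbered 2476 and 5069 in fasting (9772 and 12212 in the report's setting), 5518 and 2687 in cold stress (13615 and 9551), 2280 and 3107 in thermal stress (6986 and 11566) and 6203 and 2411 in cold stress over thermal stress (15798 and 8228), since fewer unigenes were tested. With TMM the split was 10786 and 11055 in fasting, 11044 and 11938 in cold stress, 8613 and 9355 in thermal stress and 11103 and 11944 in cold stress over thermal stress. Of the 10 unigenes most like CL1777.Contig1_All, 8 were also found at a minimum of 1000 fragments, and 0 when likeness was Pearson's correlation, which ignores the size of the differences.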
